A study of Mus musculus with 12 samples.

Results

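The genes described here are 9 genes of the MHC class I antigen presentation pathway, B2m, H2-K1, H2-D1, Tap1, Tap2, Tapbp, Psmb8, Psmb9 and Nlrc5, chosen by symbol from the 24091 genes of the expression table. All 9 were found in it. Their RNA was measured by RNA sequencing in 12 mouse samples, in 4 groups of 3. The first group was medulloblastoma, a tumor of the cerebellum, from Brca2Δex3-4; Trp53-/- mice GB344, GB359 and GB370. The second was the adjacent cerebellum of the same 3 mice, which the labels call normal. The third was control cerebellum of Brca2Δex3-4; Trp53+/+ mice GB361, GB508 and GB512, and the fourth came from mice GB517, GB519 and GB520, Brca2 WT; Trp53-/-, also as control cerebellum. The controls were taken at postnatal day 90, and the authors describe them as age-matched to the tumors. The age of each tumor-bearing mouse was not given in the sources used here.

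Brca2Δex3-4 is a conditional deletion of exons 3 and 4 driven by Cre under the human GFAP promoter, which is active in the developing central nervous system. The Trp53 knockout was global. Each group has a single genotype, no group was wild type for both genes, and tumor tissue, tumor-bearing host and combined genotype cannot be told apart in the comparison of tumor with control. The lines came from C57BL/6, 129S and FVB stock. These strains do not all carry the same H2 haplotype, and the H2 alleles of each mouse were not analysed here. The values are TPM, in which each transcript is scaled by its length and each sample to the same sum. Levels in TPM can be compared between genes, but read numbers cannot be recovered from them, and depth is unknown. Each sample is a piece of tissue, so fewer cells of a type and less RNA per cell cannot be told apart.

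MHC class I molecules display fragments of the proteins made inside a cell to CD8 T cells and NK cells. H2-K1 and H2-D1 encode heavy chains, and B2m encodes the light chain with which every classical heavy chain must pair. Psmb8 and Psmb9 encode subunits of the immunoproteasome, which cuts proteins into peptides and takes the place of the constitutive proteasome after interferon. Tap1 and Tap2 form the transporter that carries peptides into the endoplasmic reticulum, where tapasin, the product of Tapbp, bridges the transporter and the empty heavy chain. NLRC5 is a transactivator that acts at class I promoters with the RFX, CREB and NF-Y factors. Neurons hold class I at low levels in the resting brain, and interferon raises it in most cell types.

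In the GRCm38.p6 annotation, which has the sequence of mm10, 7 of the 9 genes lie on chromosome 17 within or beside the H2 complex. Psmb9 (34182030 to 34187330), Tap1 (34187556 to 34197225), Psmb8 (34198195 to 34201454) and Tap2 (34204479 to 34216321) are neighbours, with 225 bases between Psmb9 and Tap1. Tapbp (33919478 to 33929290), H2-K1 (33996012 to 34000619) and H2-D1 (35263094 to 35267497) lie to either side. B2m is on chromosome 2 (122147687 to 122153082) and Nlrc5 on chromosome 8 (94434335 to 94527272). RefSeq promoter sequence was at hand for 7 of the 9, all but Tap2 and Nlrc5. Short stretches of 3 promoters are shown because B2m, H2-K1 and H2-D1 hold the same pair of elements while their RNA levels, given below, differed in their course. The first element holds an IRF core (AANNGAAA or its complement), the sequence read by interferon regulatory factors, beside the NF-κB consensus. Capitals mark both motifs, which do not overlap each other in these 3 stretches.
B2m, chr2:122147550-122147570, plus strand: AACTGAAAatgGGAAAGTCCC
H2-K1, chr17:34000430-34000458, minus strand: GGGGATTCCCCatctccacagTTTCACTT
H2-D1, chr17:35262923-35262951, plus strand: GGGGATTCCCCatctcctcagTTTCACTT

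The second element holds TGACG, a CREB site core, followed by ATTGG, the Y box of NF-Y, and these are letters of the module at which NLRC5 is known to act. Capitals mark TGACG and ATTGG.
B2m, chr2:122147609-122147638, plus strand: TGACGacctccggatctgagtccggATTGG
H2-K1, chr17:34000359-34000388, minus strand: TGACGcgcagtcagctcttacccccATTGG
H2-D1, chr17:35262993-35263022, plus strand: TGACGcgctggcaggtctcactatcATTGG

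The first element of H2-K1 and that of H2-D1 were identical at 28 of 29 bases, and the second at 23 of 30. In all 3 promoters exactly 20 bases lay between TGACG and ATTGG. Over the 250 bases before the first listed start of 27025 genes, and on either strand, this spaced pair was found in 25 (0.0925%), and with any spacing of 15 to 25 bases in 109 (0.403%), which also held for the same 3 genes alone of the 7. The IRF core was found in 21.6% of promoters, the NF-κB consensus in 3.75%, TGACG in 17.9% and ATTGG in 34.5%. Among the 7 genes with sequence, the IRF core and the NF-κB consensus were each found in 3, TGACG in 5 and ATTGG in 6, and Tap1 and Psmb9 share part of their window on opposite strands. The spacing was searched after the sequences had been read. A match describes these letters in the reference strain only.

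B2m and H2-D1 were the most abundant of the 9 genes in control cerebellum, with 241 ± 71.8 TPM and 268 ± 37.4 TPM (SD, n = 6). H2-K1 and Tapbp followed with 47.7 ± 21.2 and 29.9 ± 4.21 TPM (SD, n = 6), and Tap2 with 12.6 ± 1.80 TPM (SD, n = 6). Psmb8 (5.67 ± 2.94), Psmb9 (3.87 ± 2.34) and Tap1 (3.51 ± 1.67 TPM, SD, n = 6) were lower and overlapped each other, and Nlrc5 was at 0.572 ± 0.456 TPM (SD, n = 6). B2m and H2-D1 also overlapped. In the order of group means, tumor was the highest group for 8 of the 9 genes and Brca2 WT; Trp53-/- cerebellum the lowest for 9 of 9.

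The light chain gene B2m was at 1067, 793 and 329 TPM in the tumors of GB344, GB359 and GB370. In the 6 control cerebella it ranged from 182 to 357 TPM, with a median of 209.6 TPM. Tumors GB344 and GB359 lay far above the controls, and tumor GB370 lay below the highest control, GB512. The log2 fold change of tumor over both control genotypes was 1.48 (SE 0.35, limma adjusted p = 0.00302). A gene was called where the limma adjusted p over all genes was under 0.01 and the log2 fold change at least 1, so B2m was called higher. All fold changes are of TPM + 1, which understates those of genes with low TPM.

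The heavy chains H2-K1 and H2-D1 took different courses. H2-K1 was at 332, 241 and 74.4 TPM in the tumors of mice GB344, GB359 and GB370, against 34.0 to 86.1 TPM in controls, with a median of 35.9 TPM. Again only GB512 among the controls exceeded tumor GB370. The log2 fold change was 2.0 (SE 0.45, adjusted p = 0.00244), and H2-K1 was called higher. H2-D1 was at 417, 326 and 157 TPM in the same tumors, against 222 to 326 TPM in controls, with a median of 272 TPM. Tumor GB344 was the highest of the 12 samples for this gene and tumor GB370 the lowest. The log2 fold change of H2-D1 was 0.06 (SE 0.26, adjusted p = 0.847), and leaving out tumor GB344 turned it to −0.23. Windows of 75 bases, the read length that the authors give, were compared between transcripts of the GENCODE M21 annotation. Of these windows, 1.55% in the H2-K1 transcript and 6.90% in the H2-D1 transcript also occur in transcripts of other genes. Most of each transcript could thus be told apart on the reference alleles.

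The immunoproteasome genes had the largest log2 fold changes of TPM + 1 of the 9, a scale that understates the change of Nlrc5, whose level was lowest. Psmb8 was at 83.8, 36.0 and 9.97 TPM in the tumors of mice GB344, GB359 and GB370, against 3.55 to 11.3 TPM in controls, with a median of 4.37 TPM. Its log2 fold change was 2.38 (SE 0.55, adjusted p = 0.00271). Psmb9 was at 31.9, 24.2 and 7.86 TPM in the tumors, against 1.68 to 8.44 TPM in controls, with a median of 3.35 TPM. Its log2 fold change was 2.11 (SE 0.44, adjusted p = 0.00153). Both were called higher, and for both tumor GB370 lay within the control range.

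The transporter subunits were unlike each other. Tap1 was at 23.8, 17.1 and 6.51 TPM in the tumors of mice GB344, GB359 and GB370, against 2.37 to 6.63 TPM in controls, with a median of 2.70 TPM. It was called higher, with a log2 fold change of 1.80 (SE 0.38, adjusted p = 0.00149). Tap2 was at 30.8, 20.4 and 10.4 TPM in the tumors, against 10.3 to 15.1 TPM in controls, with a median of 12.5 TPM. Tumor GB370 was close to the lowest control, and the log2 fold change was 0.56 (SE 0.27, adjusted p = 0.0846). Tapbp, the loading bridge, was at 42.9, 35.6 and 25.4 TPM in the tumors, against 24.6 to 37.3 TPM in controls, with a log2 fold change of 0.18 (SE 0.16, adjusted p = 0.334).

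Nlrc5, the transactivator, was at 8.89, 6.04 and 1.30 TPM in the tumors of mice GB344, GB359 and GB370. Control cerebella had 0.236 to 1.47 TPM, with a median of 0.385 TPM, and 5 of the 6 were below 1 TPM. It was called higher, with a log2 fold change of 1.83 (SE 0.41, adjusted p = 0.00214).

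**Figure D1:**
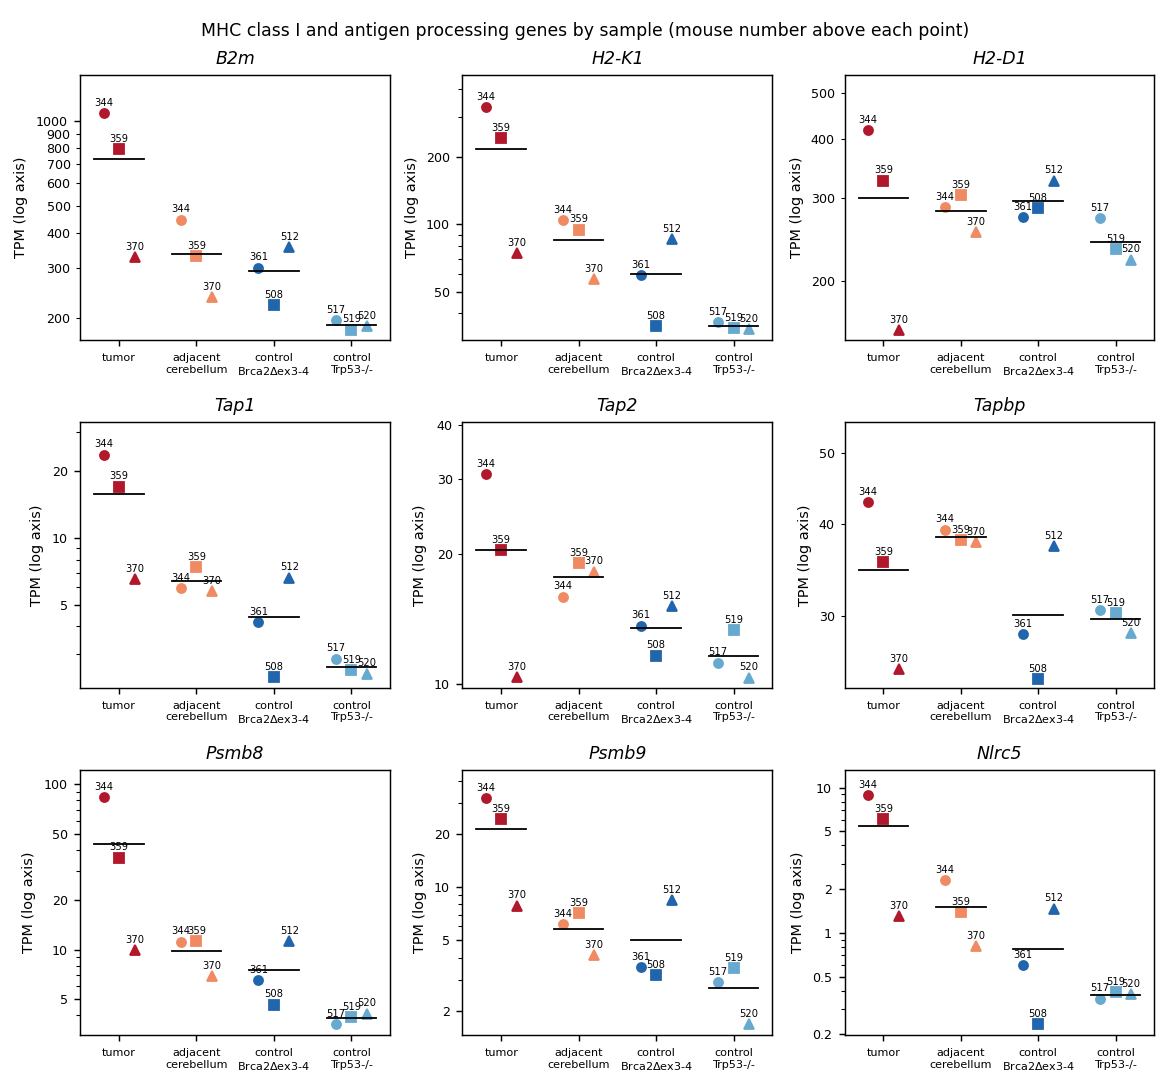
TPM of the 9 genes on log axes in each of the 12 samples, by group, with the mouse number above each point and a line at the group mean of 3 mice. Tumor GB344 is the highest of the 12 samples in 9 of 9 panels, tumor GB370 is the lowest tumor in 9 of 9, and GB512 is the highest of the 6 controls in 9 of 9.

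Together, 6 of the 9 genes were called higher in tumors than in both control genotypes and 0 lower, beside 14.4% of all 16241 genes tested called higher and 21.5% called lower. The median log2 fold change of the 9 genes was 1.80, and that of all genes tested was −0.11. Quantile normalization moved the median of all genes to 0.04. Despite these calls, in 0 of the 9 genes did every tumor lie above every control, while this held for 28.3% of all genes tested, because tumor GB370 exceeded the highest control in 0 of 9 genes. Tumor GB344 exceeded it in 9 of 9 and tumor GB359 in 7 of 9. The count rested on the pair of high tumors. Without tumor GB344, or without tumor GB359, 2 genes were called, Tap1 and Psmb9. With the Brca2Δex3-4; Trp53+/+ cerebella as the only control 0 genes were called, with log2 fold changes of the 6 genes between 1.18 and 2.01 and adjusted p between 0.0218 and 0.042, although the unadjusted p was below 0.05 for those 6. With the Brca2 WT; Trp53-/- cerebella as the only control 5 were called. Without tumor GB370 and control GB512 together, a setting chosen after the values were seen, 7 were called, Tap2 being the added gene, and the median was 2.47.

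**Figure D2:**
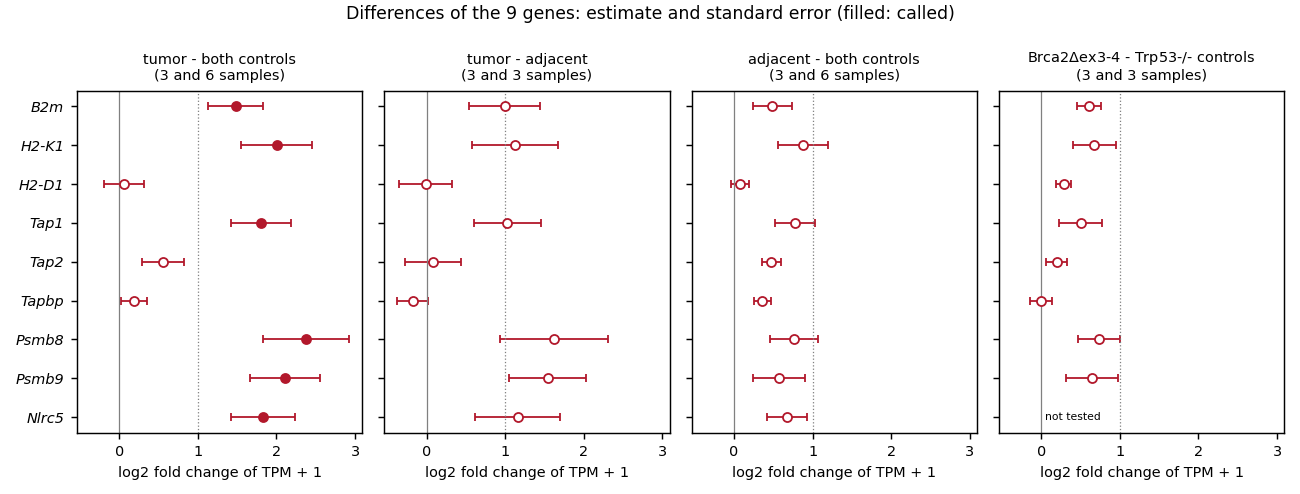
Log2 fold change of TPM + 1 with its standard error for the 9 genes in 4 comparisons, with a filled point where a gene was called and a dotted line at a log2 fold change of 1. Filled points occur only in tumor against both controls, for B2m, H2-K1, Tap1, Psmb8, Psmb9 and Nlrc5, and H2-D1 and Tapbp stay near 0 there.

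Ratios of partner genes within a sample do not depend on how libraries are scaled, and 5 were computed after the values had been seen. H2-K1/H2-D1 was 0.797, 0.741 and 0.474 in tumors GB344, GB359 and GB370, between 0.224 and 0.366 in adjacent cerebella and between 0.123 and 0.264 in controls. Tap1/Tap2 was 0.773, 0.835 and 0.628 in the same tumors, between 0.317 and 0.388 in adjacent cerebella and between 0.190 and 0.438 in controls. In both ratios all 3 tumors, GB370 included, lay above all 9 other samples. The mean log2 ratio was higher in tumors than in controls by 1.97 for H2-K1/H2-D1 and by 1.5 for Tap1/Tap2 (both two-sided exact permutation p = 0.0119, the smallest that 84 assignments of 3 and 6 samples allow, and 0.0198 adjusted over the 5 ratios). The p-values of the 5 ratios do not account for their choice after the values had been seen. Such a ratio shows unequal change and not which partner moved, and single genes separated tumors upward from controls in 28.3% of cases.

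The immunoproteasome subunits were set against the constitutive subunits they replace. Psmb8/Psmb5 was 0.243 and 0.180 in tumors GB344 and GB359 but 0.0413 in tumor GB370, within the control range of 0.0189 to 0.0575. Psmb9/Psmb6 was likewise 0.114 and 0.0895 in tumors GB344 and GB359 but 0.0253 in tumor GB370, against 0.00946 to 0.0436 in controls. Their log2 differences were 2.14 and 1.80 (both exact permutation p = 0.0238, adjusted p = 0.0238), and without tumor GB344 or without tumor GB359 the exact p was 0.0714 for each. Psmb10/Psmb7, the third such pair, was between 0.131 and 0.146 in tumors and between 0.0943 and 0.121 in controls, a log2 difference of 0.43 (exact permutation p = 0.0119, adjusted p = 0.0198). The 3 constitutive genes themselves were not called. Their log2 fold changes were 0.44 for Psmb5 (adjusted p = 0.0161), 0.61 for Psmb6 (1.69e-05) and 0.05 for Psmb7 (0.783), and Psmb10 had 0.47 (0.0281).

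**Figure D3:**
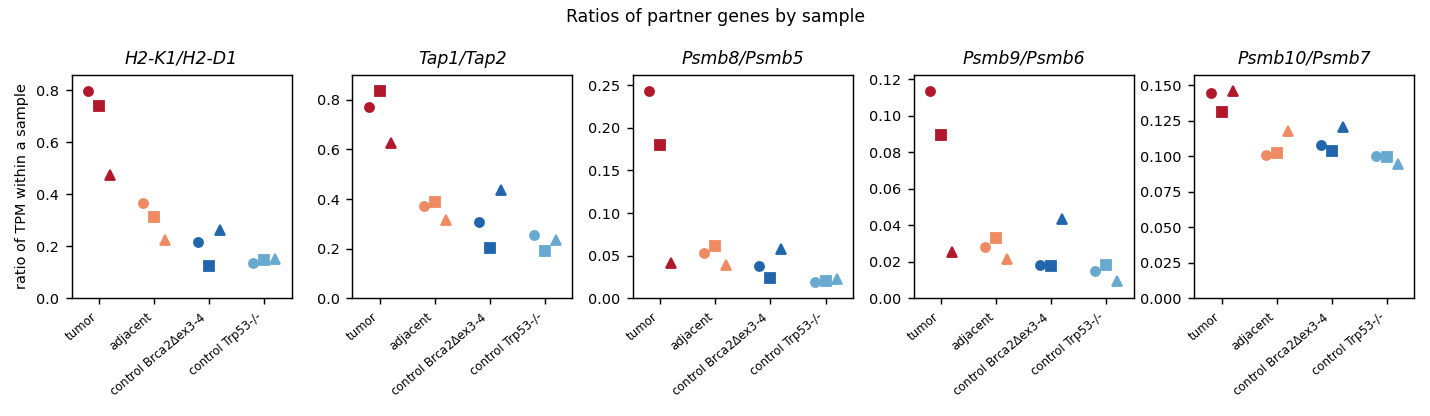
Ratio of the TPM of 2 partner genes within each sample, on linear axes from 0, by group, with a marker for each mouse. For H2-K1/H2-D1, Tap1/Tap2 and Psmb10/Psmb7 every tumor is above all 9 other samples, while for Psmb8/Psmb5 and Psmb9/Psmb6 tumor GB370 sits among the controls.

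Tumor and adjacent cerebellum of the same mouse were compared to ask whether the tumor differed from its own surroundings. The adjacent cerebella also held RNA of granule cell progenitors, the cells from which this tumor type grows, with values given below. The part of this RNA in the comparison was not tested. B2m was at 446, 332 and 238 TPM in the adjacent cerebella of GB344, GB359 and GB370, and H2-K1 at 104.8, 94.6 and 56.9 TPM. Psmb9 was at 6.18, 7.14 and 4.13 TPM there, all below the lowest tumor, and Nlrc5 at 2.32, 1.39 and 0.813 TPM. B2m, H2-K1, Tap1, Psmb8, Psmb9 and Nlrc5 were each higher in the tumor in 3 of 3 mice. H2-D1 and Tap2 were higher in the tumor in 2 of 3 mice and Tapbp in 1 of 3. In mouse GB344 all 9 genes were higher in the tumor, with a median log2 difference of 1.57, in GB359 8 of 9 with a median of 1.26, and in GB370 6 of 9 with a median of 0.34. In GB370, Tap2 was lower in the tumor by 0.76, H2-D1 by 0.69 and Tapbp by 0.56 on the log2 scale.

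With 3 tumors and 3 adjacent cerebella, limma called 0 of the 9 genes, beside 4.76% of 15845 genes called higher and 18.0% lower. With quantile normalization the split over all genes was 1603 higher and 2192 lower, against 755 and 2852. An unadjusted p under 0.05 was reached by 2 of the 9, Tap1 and Psmb9. Psmb9 had a log2 fold change of 1.54 (SE 0.49, adjusted p = 0.0359), and it was the only gene of the 9 whose groups did not overlap, beside 23.7% of all genes with every tumor above every adjacent cerebellum. The median of the 9 was 1.03 and that of all genes −0.14. With the mouse as a block, which the main fit left out, 0 genes were called. The limma adjusted p was then under 0.05 for Psmb9 (0.0122), B2m (0.0146), H2-K1 (0.021), Nlrc5 (0.0282) and Psmb8 (0.0331). Without tumor GB370, 5 genes were called higher, H2-K1, Tap1, Psmb8, Psmb9 and Nlrc5.

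**Figure D4:**
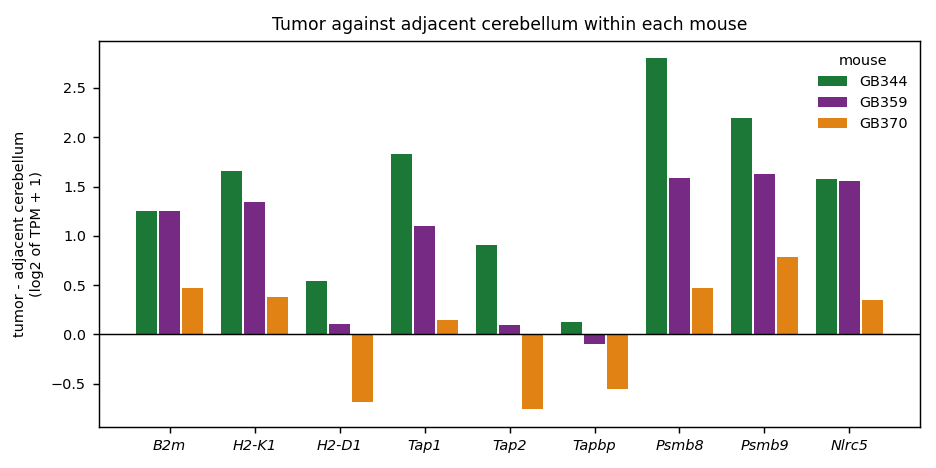
Difference between tumor and adjacent cerebellum of the same mouse, in log2 of TPM + 1, for the 9 genes, with a bar for each of 3 mice. Bars of GB344 are above 0 for 9 of 9 genes and those of GB370 below 0 for H2-D1, Tap2 and Tapbp.

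The adjacent cerebella were also set against the control cerebella. All 9 genes had a log2 fold change above 0, with a median of 0.57, where all genes had 0.07. limma called 0 of 9, beside 0.224% of 16091 genes called higher, and 6 of 9 had an unadjusted p under 0.05. Tap2 was at 16.0, 19.1 and 18.2 TPM in the adjacent cerebella of GB344, GB359 and GB370, above all 6 controls (log2 fold change 0.48, SE 0.13, adjusted p = 0.0344). Tapbp was at 39.3, 38.1 and 37.9 TPM, also above all 6 controls (0.36, SE 0.11, adjusted p = 0.0517). Groups that did not overlap in this direction were found for 11.7% of all genes. The adjacent cerebella of GB344, GB359 and, at a lower level, GB370 held RNA of granule cell progenitors. This tumor type grows from these cells. Atoh1, the transcription factor that defines them, was at 59.4, 50.5 and 5.0 TPM in the adjacent cerebella of GB344, GB359 and GB370 and at most 0.212 TPM in controls. The summed TPM of the 10 genes of the progenitor and hedgehog list was 1018, 820 and 249 there, against 139 to 187 in controls and 2474 to 2940 in tumors. Its part in the difference was not tested. In the adjacent cerebellum of GB370, with the lowest sum, Tap2 and Tapbp were 18.2 and 37.9 TPM, and B2m was at 238 TPM, within the control range.

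Between the control genotypes, 8 of the 9 genes could be tested, since Nlrc5 did not reach 1 TPM in 3 of the 6 samples. limma called 0 of 8, beside 0.0128% of 15575 genes called higher, and 4 of 8 had an unadjusted p under 0.05. B2m was at 302, 222 and 357 TPM in GB361, GB508 and GB512 and at 197, 182 and 188 TPM in the other genotype (GB517, GB519, GB520), so the genotypes did not overlap (log2 fold change of Brca2Δex3-4; Trp53+/+ over Brca2 WT; Trp53-/- 0.61, SE 0.15, adjusted p = 0.111). H2-D1 (0.28, adjusted p = 0.176) and Psmb8 (0.73, adjusted p = 0.189) did not overlap either, beside 6.7% of all genes. The Brca2Δex3-4; Trp53+/+ mice spread widely. In GB512, Tap1 was at 6.63, Psmb8 at 11.3 and Nlrc5 at 1.47 TPM, and in GB508 they were at 2.37, 4.65 and 0.236 TPM, while the Brca2 WT; Trp53-/- mice lay between 2.45 and 2.87, 3.55 and 4.10, and 0.352 and 0.392 TPM. The median of the 9 differences was 0.50, and without GB512 it was 0.21. Choroid plexus RNA differed between these groups as well. Ttr, the most abundant transcript of that tissue, was at 3849 to 5039 TPM in Brca2 WT; Trp53-/- cerebella and at 842, 9.6 and 11.8 TPM in GB361, GB508 and GB512. Its part in the differences was not tested.

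Other heavy chains of the class I family did not move as a block. Of 22 listed, 19 could be tested between tumors and controls, and 6 were called higher and 3 lower, beside 14.4% and 21.5% of all genes. The largest differences were those of Cd1d1, which presents lipids to NKT cells (log2 fold change 3.71, adjusted p = 2.16e-07), H2-M5 (3.46, 6.1e-08), Mr1, which presents vitamin B metabolites to MAIT cells (2.49, 2.66e-07), and H2-Bl, which was lower (−2.48, 1.43e-06). The order of the tumors was not the same in all of them. H2-Q4 was at 91.7, 60.8 and 25.6 TPM and H2-Q7 at 46.9, 34.5 and 11.2 TPM in the tumors of GB344, GB359 and GB370, the order of the 9, against 12.2 to 30.2 and 5.34 to 10.95 TPM in controls. Both were called higher (1.46, adjusted p = 0.00502, and 1.59, 0.00298), and both were named after their values were seen. H2-Q5 and H2-Q6 had the same order of tumors. Of windows of read length, 21.7% of the H2-Q7, 17.9% of the H2-Q6 and 7.91% of the H2-Q4 transcript also occur in other genes. Those of H2-Q7 are shared with H2-Q6 and H2-Q5 among others, so the levels of these genes are not fully separate measures. For Cd1d1, 19.4% of windows are shared, with Cd1d2. Cd1d1 was at 21.8, 25.3 and 33.3 TPM and Mr1 at 32.9, 55.8 and 51.5 TPM in the tumors of mice GB344, GB359 and GB370, so GB370 was not their lowest tumor. Cd1d1 was at 0.773 to 2.55 TPM and Mr1 at 6.56 to 8.26 TPM in controls. In tumor against adjacent cerebellum 3 of the family were called higher and 2 lower, beside 4.76% and 18.0% of all genes. H2-Bl was at −2.42, Cd1d1 at 2.32, H2-K2 at −2.28 and Mr1 at 1.95. In adjacent against control cerebellum 0 of 19 were called, 9 of them with an unadjusted p under 0.05. Their most abundant members there were H2-Q4 (0.81, adjusted p = 0.0449) and Fcgrt, the Fc receptor of newborns (−0.14, 0.405). Between control genotypes 0 of 16 were called and 3 had an unadjusted p under 0.05, with H2-Q4 at 0.30 (0.594) and Fcgrt at −0.23 (0.181).

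Of 22 genes that supply and load peptides, 4 were called higher and 1 lower in tumors against controls, beside 14.4% and 21.5% of all genes. They included Lap3, a leucine aminopeptidase (log2 fold change 1.94, adjusted p = 1.3e-07), Psme1 and Psme2, the subunits of the PA28 proteasome activator (1.55, 1.06e-06, and 1.22, 0.00055), and Lnpep, an endosomal aminopeptidase, which was lower (−2.07, 4.93e-05). Psme1 was at 173, 139 and 123 TPM in the tumors of mice GB344, GB359 and GB370 and at 42.2 to 55.8 TPM in controls, with no overlap. The median of the list was 0.41. In tumor against adjacent cerebellum Lap3 was the only gene called (1.44, adjusted p = 0.004), beside 4.76% of all genes called higher. There 12 of 22 had an unadjusted p under 0.05. In adjacent against control cerebellum and between control genotypes 0 of 22 were called, with 8 and 3 at an unadjusted p under 0.05. Calr, the chaperone calreticulin, and Psmb7 were their most abundant members, at −0.26 (adjusted p = 0.315) and 0.03 (0.786) in the former and at −0.15 (0.712) and 0.12 (0.347) in the latter.

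Regulators of class I transcription were tested for 26 genes. Of these, 6 were called higher and 1 lower in tumors against controls, beside 14.4% and 21.5% of all genes. The gene called lower, named after its values were seen, was Stat2 (−1.18). It was at 18.8 to 27.2 TPM in tumors and 39.2 to 70.3 TPM in controls. The largest differences were those of Socs3, a feedback inhibitor of cytokine signaling (3.64, adjusted p = 7.4e-08), Ezh2, the histone methyltransferase of PRC2 (3.44, 1.24e-07), Irf8 (2.09, 7.29e-06) and Irf1 (1.58, 0.000151), the latter a transcription factor of interferon response. Irf1 was at 26.3, 21.8 and 11 TPM in the tumors of mice GB344, GB359 and GB370 and at 4.54 to 7.12 TPM in controls, so that all tumors were higher. Rfx5, a partner of NLRC5, had a log2 fold change of 0.07 (0.624), and Ciita, listed with the class II genes as their transactivator and a relative of NLRC5, had −0.60 (0.00216), under the fold limit. Ciita was at 1.56, 1.86 and 1.47 TPM in the tumors of mice GB344, GB359 and GB370, below the 2.57 to 3.6 TPM of the controls. In tumor against adjacent cerebellum Ezh2 was called higher (2.13, 0.00892) and Stat2 lower (−1.52, 0.000596), beside 4.76% and 18.0% of all genes. There Irf1 was at 1.10 (0.0527), Rfx5 at −0.35 (0.135) and Ciita at −0.35 (0.119). In adjacent against control cerebellum 0 of 26 were called and 11 had an unadjusted p under 0.05, and Irf1 was at 0.48 (0.145), Rfx5 at 0.42 (0.0514), Nfyc at 0.22 (0.0725), Jak1 at −0.01 (0.919) and Ciita at −0.25 (0.223). Between control genotypes 0 of 26 were called and 4 had an unadjusted p under 0.05, and Irf1, Rfx5, Nfyc, Jak1 and Ciita lay between −0.28 (Ciita) and −0.02 (Irf1).

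Interferon-stimulated genes had, as a sum, the same order of the 3 tumors and the same highest control as the 9 class I genes, but across all 12 samples the order of the sums was not the same. Of 29, 18 were called higher and 0 lower in tumors against controls, beside 14.4% and 21.5% of all genes. The median log2 fold change was 1.80, and the number called higher ranged from 2 to 27 over 21 other settings with the same thresholds. It was 4 without tumor GB344, 7 without tumor GB359 and 2 with the Brca2Δex3-4; Trp53+/+ cerebella as the only control. The largest were Cxcl10, a chemokine for T cells (3.44, adjusted p = 0.00253), Usp18 (2.74, 0.00462), Oasl2 (2.46, 0.0053) and Bst2 (2.32, 0.0062). Cxcl10 was at 71.1, 36.0 and 14.2 TPM in the tumors of mice GB344, GB359 and GB370, at 18.7 TPM in GB512 and at 0.504 to 3.11 TPM in the other 5 controls. The summed TPM of the list was 2168, 778 and 452 in the tumors, 667, 458 and 391 in the adjacent cerebella of GB344, GB359 and GB370, 626 in GB512 and 201 to 261 in the other controls. In tumor against adjacent cerebellum 0 of 29 were called and 6 had an unadjusted p under 0.05, with Ifitm3 at 0.78 (0.32) and Ifi27 at 0.79 (0.179). In adjacent against control cerebellum 0 of 29 were called and 17 had an unadjusted p under 0.05, with Ifitm3 at 1.0 (0.0622) and Ifi27 at 0.73 (0.174), and between control genotypes 0 of 28 and 2, with 0.68 (0.275) and 0.32 (0.652). GB512 also held RNA of dividing cells, with Mki67 at 5.63 and Top2a at 8.42 TPM, against at most 0.343 and 0.686 TPM in the other 5 controls.

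MHC class II genes serve antigen presentation by microglia, macrophages and dendritic cells. In tumors against controls 6 of 8 tested were called higher and 0 of 8 lower, beside 14.4% and 21.5% of all genes. H2-Ab1 (3.16, adjusted p = 0.000115), Cd74, the invariant chain (3.14, 6.56e-05), H2-Eb1 (3.11, 4.26e-05) and H2-Aa (3.01, 0.000295) had the largest differences. The same 4 genes were called in tumor against adjacent cerebellum, at 2.78 (0.00974), 2.86 (0.00918), 2.91 (0.00628) and 3.06 (0.00883), beside 4.76% of all genes called higher. Cd74 was at 201, 111 and 37.0 TPM in the tumors of mice GB344, GB359 and GB370, the order of the class I genes, but at 6.53 to 13.4 TPM in controls, where GB512 had 8.81 TPM and was not the highest. In adjacent against control cerebellum 0 of 8 were called and 1 had an unadjusted p under 0.05, with Ctss, a lysosomal protease, at 0.39 (0.341) and Cd74 at 0.28 (0.49). Between control genotypes 0 of 8 were called and 4 had an unadjusted p under 0.05, with Ctss at 0.51 (0.212) and Cd74 at −0.42 (0.216).

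Markers of cell types that can carry class I were set beside these results, and their part in them was not tested. Of 18 microglia and macrophage genes, 10 were called higher and 0 lower in tumors against controls, beside 14.4% and 21.5% of all genes. They were led by Fcrls (2.41, adjusted p = 5.87e-05), Cd68 (2.33, 2.91e-06), Aif1 (2.15, 7.34e-05) and C1qc (1.92, 0.000139). Their summed TPM was 545, 1002 and 704 in tumors GB344, GB359 and GB370, 598, 573 and 284 in the adjacent cerebella of the same mice, 434 in GB512 and 253 to 308 in the other controls. Thus tumor GB344, the highest for the 9 class I genes, was the lowest tumor for the sum of these markers, though not for each of them. P2ry12 and Tmem119, both markers of resting microglia, were at 2.26 and 8.71 TPM there. Over all tumors P2ry12 spanned 2.26 to 7.62 TPM and Tmem119 5.97 to 8.71 TPM, against 6.81 to 8.81 and 6.38 to 11.1 TPM in controls. Ptprc, which marks all leukocytes, was at 5.77, 4.62 and 2.28 TPM in the tumors of GB344, GB359 and GB370, against 0.980 to 2.50 TPM in controls. In tumor against adjacent cerebellum 0 of 18 were called and 6 had an unadjusted p under 0.05, with C1qa at 0.79 (0.0778). In adjacent against control cerebellum 0 of 18 and 8 did so, with C1qa at 0.93 (0.0707), and between control genotypes 0 of 18 and 4, with C1qa at 0.59 (0.249).

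Most lymphocyte markers were low. Of 17 in the table, only 3 could be tested, and 1, Cd3d, was called higher in tumors against controls (1.99, adjusted p = 1.53e-05), beside 14.4% of all genes. Cd3d was at 23.3, 31.9 and 44.1 TPM in the tumors of mice GB344, GB359 and GB370 and at 5.20 to 9.39 TPM in controls, but Cd3e, its partner in the T cell receptor complex, was at most 0.663 TPM in any sample. Without Cd3d the other 16 markers summed to 9.25 to 15.6 TPM in tumors, 5.03 to 6.85 TPM in adjacent cerebella and 4.12 to 6.60 TPM in controls. Cd8a was at most 1.29 TPM, Cd4 at most 2.51 TPM, Cd3g at most 2.37 TPM, and Ncr1, which marks NK cells, at most 0.204 TPM. Of B cell markers, Ms4a1 was at most 0.311 TPM, while Cd79a was at 1.33, 2.79 and 4.74 TPM in the tumors of GB344, GB359 and GB370 and at 0.751 to 1.78 TPM in controls (0.80, adjusted p = 0.023, not called). Endothelial genes were called higher for 0 of 13 and lower for 3, Ly6c1 (−1.72, adjusted p = 2.48e-05), Slco1a4 (−1.65, 0.000144) and Flt1 (−1.56, 3.06e-05), beside 21.5% of all genes called lower. Every tumor lay above every control for 3 of the 13 genes and below for 4, beside 28.3% and 35.7% of all genes. The 3, named after their values were seen, were Cldn5 (0.58, adjusted p = 0.00296), Cdh5 (0.57, 0.0295) and Kdr (0.57, 0.0058). All 3 stayed under the fold limit, and Cdh5 also missed the limit for the adjusted p. The summed TPM of the list was 186, 184 and 294 in tumors GB344, GB359 and GB370 against 278 to 310 in controls.

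**Figure D5:**
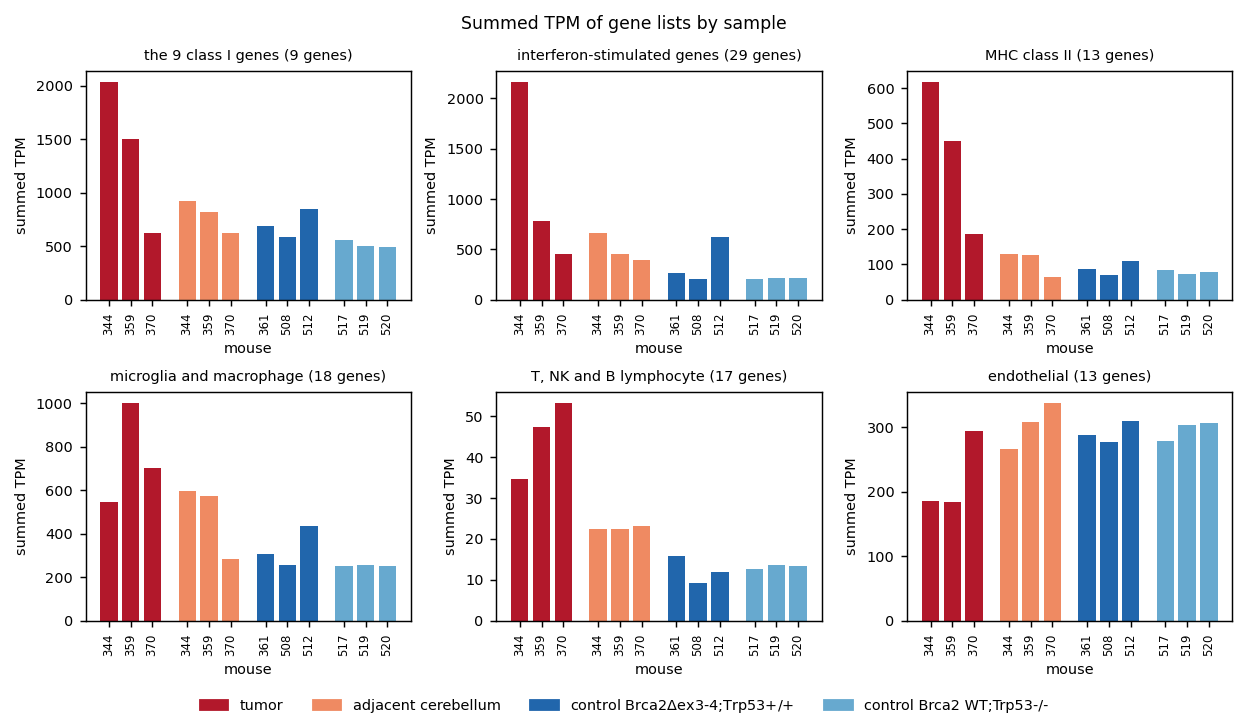
Summed TPM of the 9 class I genes and of 5 other gene lists in each sample, as bars from 0, by mouse and group. The class I, interferon-stimulated and class II sums fall from tumor GB344 to GB359 to GB370, the microglia and macrophage sum is highest in tumor GB359 (1002 TPM), and the lymphocyte sum, of at most 53.4 TPM, is mostly Cd3d.

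The tissue labels were checked against further markers. Of 10 progenitor and hedgehog genes, 9 were called higher in tumors than in controls, beside 14.4% of all genes. They were led by Atoh1 (7.61, adjusted p = 1.01e-08), Top2a (6.71, 1.82e-06), Mycn (6.5, 7.56e-08) and Ccnd2 (6.15, 6.34e-07). All 11 genes of mature cerebellar neurons were called lower, led by Nefl (−5.66, 5.09e-08), and 7 of 9 astrocyte and Bergmann glia genes, led by Gdf10 (−3.82, 8.26e-08), beside 21.5% of all genes. Gene-level Brca2 and Trp53 include transcripts without the deleted exons, so their TPM, 8.22 to 14.6 and 124 to 130 in tumors and 3.24 to 4.40 and 33.1 to 49.4 in controls, does not check the genotypes. Between 15088 and 15803 genes reached 1 TPM in a sample.

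The genes outside all lists whose level most resembled the mean z score of the 9 genes over the 12 samples were Ddx60 (Pearson r 0.97), Parp14 (0.97), Swi5 (0.96), H2-Q8 (0.96) and Zbp1 (0.95), out of 16313 searched. Those most like Nlrc5 were Zbp1 (0.98), Ifi47 (0.98) and Ddx60 (0.97). Zbp1, a sensor of Z-form nucleic acid, was at 19.0, 9.65 and 3.73 TPM in the tumors of mice GB344, GB359 and GB370, at 3.31 TPM in GB512 and at 0.828 to 2.07 TPM in the other controls. These points share libraries, and the correlations describe the 12 samples only.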

How the data were processed

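Poly(A) RNA of the 12 samples had been sequenced. The authors name Genewiz and a Rockefeller University center as sequencing sites, and give 75-base reads for the latter. The authors quantified transcripts with Salmon 0.8.1 on the mm10 knownGene transcripts (TxDb.Mmusculus.UCSC.mm10.knownGene 3.4.0) and summarized them to genes with tximport 1.20, and the deposited values are TPM. Depth is unknown, so no counting interval is given. Groups came from the sample labels, and all columns were used.

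limma 3.58.1 (R 4.3.3, eBayes with trend) was fitted to log2(TPM + 1) of the samples compared, for genes that reached 1 TPM in 3 or more of them, with Benjamini-Hochberg adjustment over all genes tested. Calls needed an adjusted p below 0.01 together with a log2 fold change of 1 or more in either direction. The script was tested on simulated data. The 9 genes, the gene lists and the naming rule were chosen with earlier results of these data known. In each list and comparison the 4 called genes with the largest absolute fold change were named, or the 2 most abundant genes where none was called, beside Psmb5, Psmb6, Psmb7, Psmb10, Irf1, Rfx5 and Ciita and markers given for a cell type. A few genes that this rule names are not reported here. Ratios were tested by two-sided exact permutation (scipy 1.17.1). Separate mice were the replicates, and the labels say nothing of batches. The sequencing site of each sample was not given in the sources used here, so an effect of site was not tested.

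Tumor and adjacent cerebellum share a mouse number in the labels. Deviations from group means correlated within a mouse (0.25, 0.18 and 0.15 over 15845 genes) and lay between −0.16 and 0.02 between different mice. Alternatives were the pseudocount, the filter, scaling, the thresholds, the fit, the control genotype, the mouse as a block and leaving out each sample.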

Additional observations from a re-analysis of the deposited data

How the results depend on the processing

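Of 684 fold changes of single genes under alternative settings, 641 kept their direction and side of the threshold, 16 lost their call, 8 gained one and 19 changed sign. Calls could be lost only in tumor against both controls, the only comparison with calls among the 9 genes. There 178 of 198 values were kept and 16 lost their call, 5 of them for Nlrc5 over its 22 settings. The cause of these changes was not tested. For tumor against both controls, the number of the 9 genes called was 6, was 0 with the Brca2Δex3-4; Trp53+/+ cerebella as the only control, and ranged from 2 to 6 with a sample left out. Leaving out tumor GB370 and control GB512 gave a median of 2.47. For tumor against adjacent cerebellum, 0 were called, 1 at an adjusted p under 0.05 with no fold limit, and 0 to 5 with a sample left out. With the mouse as a replicate block 0 were called, with a smallest adjusted p of 0.0122 for Psmb9, and the block changed no call of the 9 genes. At an adjusted p under 0.05 with no fold limit, 5 passed with the block, B2m (0.0146), H2-K1 (0.021), Psmb8 (0.0331), Psmb9 and Nlrc5 (0.0282). For adjacent against control cerebellum, 1 was called at an adjusted p under 0.05, and the median of 0.57 became 0.82 with only the Brca2 WT; Trp53-/- and 0.38 with only the Brca2Δex3-4; Trp53+/+ control, and 0.43 to 0.78 with a sample left out. Between control genotypes the median was 0.21 to 0.79 with a sample left out.

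Signs changed for H2-D1, Tapbp and Tap2, whose fold changes lay near 0. H2-D1 in tumor against controls became −0.082 with only the Brca2Δex3-4; Trp53+/+ control and −0.068 in adjacent cerebellum against that control, and with a sample left out it ranged in the former from −0.23 (tumor GB344) to 0.47 (tumor GB370). In tumor against adjacent cerebellum H2-D1 became 0.17 with median-of-ratios scaling and 0.12 with quantile normalization, and Tapbp 0.0023 and 0.046. There, with a sample left out, H2-D1 ranged from −0.31 to 0.39, Tap2 from −0.26 to 0.48 and Tapbp from −0.34 to 0.023, each lowest without tumor GB344 and highest without tumor GB370. Between control genotypes Tapbp became 0.079 and 0.089 with those scalings and 0.013 without Mir6236, and ranged from −0.16 (without GB512) to 0.13 (without GB508) with a sample left out. Over all genes, tumor against adjacent cerebellum gave 755 higher and 2852 lower calls, 1296 and 2476 with median-of-ratios scaling, 1603 and 2192 with quantile normalization and 465 and 2663 without a filter. Adjacent against control cerebellum gave 36 higher calls over all genes, 564 without adjacent GB370 and 0 without GB520.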

Other observations

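H2-T10 and H2-T22, neighbouring class I-like genes that serve as ligands of some γδ T cells, were looked at after their values had been seen. H2-T10 made up 29.5%, 49.8% and 9.76% of the summed TPM of both genes in the tumors of GB344, GB359 and GB370, with 25.3%, 65.9% and 43.1% in the adjacent cerebella of these mice. It made up 16.7%, 68.0% and 18.7% in GB361, GB508 and GB512 and 66.6%, 59.0% and 61.7% in GB517, GB519 and GB520. The share varied within the tumors, the adjacent cerebella and the Brca2Δex3-4; Trp53+/+ cerebella, and was alike in the 3 Brca2 WT; Trp53-/- cerebella. Of 75-base windows, 23.3% of the H2-T10 and 26.1% of the H2-T22 transcript also occur in other genes, so the split between them is uncertain.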
